A study of Homo sapiens with 2 samples.

Results

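Integrins, laminins and the glycoproteins and proteoglycans of the extracellular matrix were described in 786-O, a cell line from a human clear cell kidney cancer with no working VHL protein. The members were taken by symbol from the tables of both libraries. Their symbols begin with ITGA followed by a digit, V or X, or name an integrin beta chain or a laminin chain. Thrombospondins, fibulins, fibrillins, syndecans and glypicans were also taken, with FN1, TNC, SPARC, LUM, DCN, BGN, VCAN, NID1, NID2, HSPG2 and AGRN. Integrin alpha genes with another letter after ITGA were not members, and fibulins were taken only under FBLN symbols. This gave 66 genes of the 22595 symbols in the tables. The data were 2 RNA sequencing libraries, 1 from a culture in medium without glucose (0 mM) and 1 from a culture in medium with 25 mM glucose, set up to profile the response to glucose starvation. The labels also gave the short codes LucG to the culture without glucose and LucF to the culture with glucose. With their meaning and the time without glucose not given in the sources used here, anything else they mark cannot be told apart from glucose. With 1 library per group there was no replicate, no test was made, and "higher" and "lower" compare these 2 libraries.

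Integrins are cell surface receptors made of 1 alpha and 1 beta chain, and the pairing sets the ligand: some pairs bind the RGD peptide of fibronectin, vitronectin or latent TGF-beta, others bind laminins or collagens. Laminins are trimers of an alpha, a beta and a gamma chain that polymerise into the basement membrane, which in the kidney underlies the tubule and lies within the filtration barrier of the glomerulus. Nidogens, perlecan and agrin tie the laminin network to collagen and to the cell, while syndecans and glypicans are cell surface carriers of heparan sulfate chains, through which they bind matrix proteins and growth factors.

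The library without glucose held 31345853 counts and the library with glucose 27317598. Levels are given as CPM, counts scaled to library size by edgeR's TMM method, and levels of different genes are compared only as CPM per kilobase of gene model. Ratios are without over with glucose, and each carries an exact 95% counting interval that covers counting error only. Members whose whole interval exceeded 2-fold were called higher, and those whose whole interval was under 0.5-fold were called lower. Small RNA genes took 7.99% of the counts without glucose and 5.83% with glucose, and this share counts in the library sizes. Of the renal epithelial markers, all 9 had at least 20 counts over both libraries, 1 was higher and 3 were lower. Among all genes with as many counts, 3.75% were higher and 6.2% lower, and the median log2 ratio was 0.01. Ratios below 1 were found for 8 of the 9 markers, whose median log2 ratio was -0.67. The 9 markers summed to 956 CPM in each library. Without EPAS1, the higher one (422 CPM without and 134 CPM with glucose), they summed to 535 CPM without and 822 CPM with glucose. PAX8 stood at 232 CPM without glucose and 244 CPM with glucose, while CDH6 stood at 8.36 and 192 CPM, and CDH16 had only 16 and 23 counts. Of other cell types, 3 of 6 leukocyte, 2 of 6 endothelial and 6 of 7 fibroblast markers reached 20 counts. The leukocyte marker PTPRC had 4 counts without and 9 with glucose, but LCP1 of that list had 320 and 253 CPM. CD68, also of that list, was higher, at 25.6 CPM without and 10.7 CPM with glucose. The leukocyte list summed to 346 CPM without and 264 CPM with glucose. The endothelial marker PECAM1 had 1 and 5 counts, with the endothelial list summing to 0.716 CPM without and 2.37 CPM with glucose. A change in the number of cells of a type and a change in RNA per cell cannot be told apart in bulk libraries such as these.

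Of the 66 members, 54 had at least 20 counts over both libraries and are called measured. The lowest of these was THBS4, with 13 counts without and 7 with glucose, and the highest below the minimum was ITGA2B, with 8 and 11 counts. The 12 below it were DCN, FBLN5, FBN3, GPC2, GPC3, GPC5, ITGA2B, ITGA8, ITGA9, ITGAX, LAMB4 and LAMC3, which had 1 to 11 counts in each library. Among the 54, 5 were higher without glucose (9.26%), where 3.75% of all 14240 measured genes were higher. The number lower was 7 (12.96%), where 6.2% of all measured genes were lower, so that 12 (22.2%) were called in either direction, where 9.95% of all measured genes were. The higher members were ITGA11, ITGB2, LAMA1, LAMB2 and TNC, and the lower ones were ITGB6, ITGA4, ITGB3, LUM, LAMA3, FBN1 and VCAN. Over the measured members the log2 ratio had a median of -0.25, with quartiles at -0.76 and 0.27, beside a median of 0.01 and quartiles at -0.45 and 0.42 for all measured genes. Among genes with at least 200 counts, 3 of 38 members were higher and 7 were lower (7.89% and 18.4%), beside 3.56% and 6.33% of all such genes. The 10 called in either direction were 26.3% of the 38, beside 9.89% of all such genes. With the interval beyond 1.5-fold, 8 members were higher, 11 lower and 19 either (14.8%, 20.4% and 35.2%), beside 10.2%, 12.6% and 22.8% of all measured genes.

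The 66 members together took 3.958% of all counts without glucose and 4.209% with glucose (95% Wilson intervals 3.951 to 3.964% and 4.201 to 4.216%). Most of this was FN1, fibronectin, the RGD-bearing glycoprotein that integrins assemble into fibrils. FN1 had 900578 counts without glucose and 794554 with glucose, which is 72.6% and 69.1% of all member counts. At 29292 CPM without and 28528 CPM with glucose its ratio was 1.03-fold (interval 1.02 to 1.03), and it turned to the other side of 1, with a log2 ratio of -0.02, when libraries were scaled by total counts. Its level per kilobase, 3281 without and 3195 with glucose, was the highest of the members in both libraries. Without FN1 the members summed to 11058 CPM without glucose and 12753 CPM with glucose. In each library 8 members exceeded 100 CPM per kilobase, and 24 members without glucose and 28 with glucose reached 10.

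**Figure D1:**
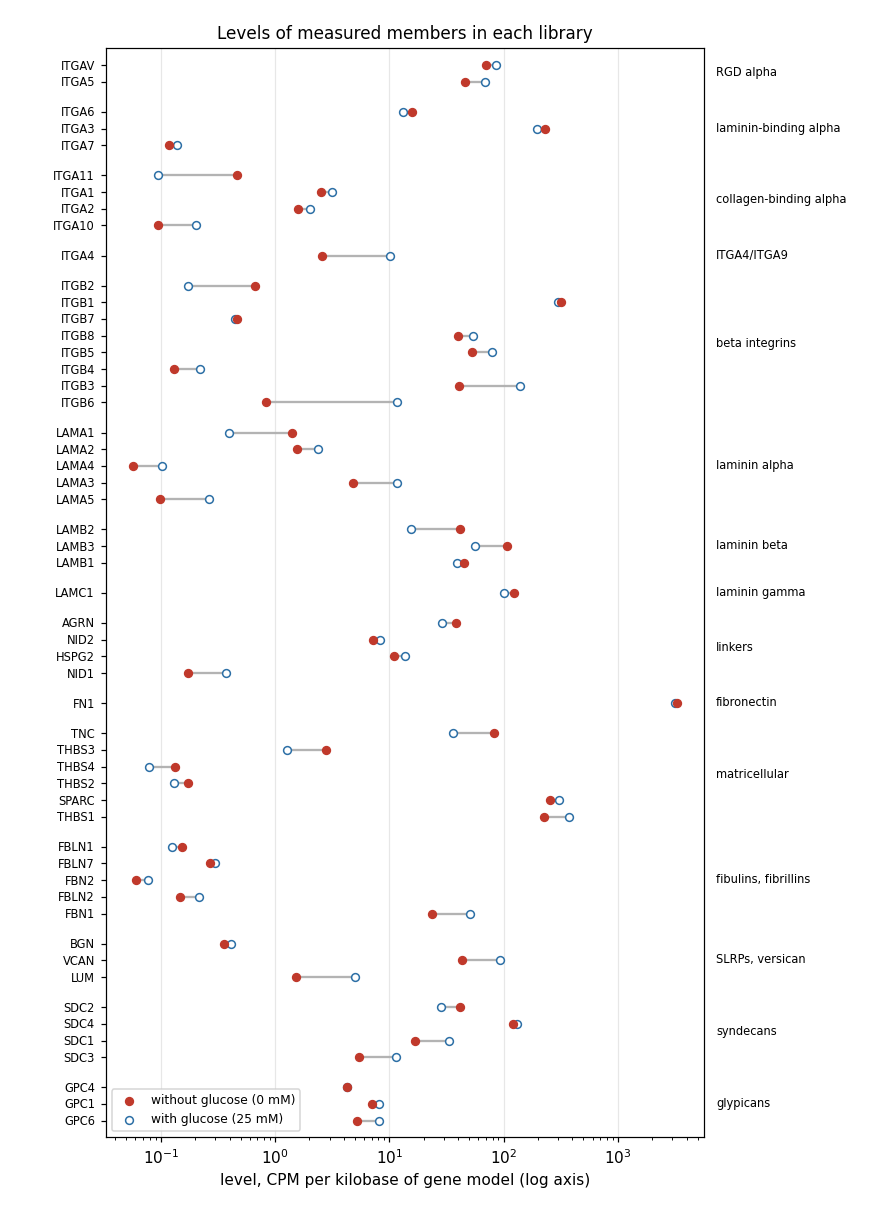
Level of measured members in CPM per kilobase of gene model on a log axis, with filled points for the library without glucose and open points for the library with glucose, 1 library each. FN1 lies above all other members at 3281 and 3195 CPM per kilobase, and the longest connecting line belongs to ITGB6.

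Integrin beta chains showed the largest difference among the members. ITGB6 encodes the epithelial beta chain that pairs only with the alphaV chain and releases active TGF-beta from its latent complex. It had 61 counts without glucose and 772 with glucose, or 1.98 CPM without and 27.7 CPM with glucose. Only 1 of its 15 exons had more than 10 reads without glucose, against 15 of 15 with glucose. The ratio was 14.0-fold lower without glucose (interval 10.8 to 18.4, log2 ratio -3.80), and ITGB6 ranked 25 from the lowest of the 14240 measured genes. After adding 1 CPM in each library the log2 ratio stood at -3.27.

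ITGB3 encodes the beta chain that forms the vitronectin receptor with alphaV. It had 6060 counts without glucose and 18867 with glucose, or 197 and 677 CPM. The ratio was 3.44-fold lower (interval 3.34 to 3.54), and ITGB3 dropped to rank 18 of the members by level per kilobase without glucose, against rank 6 with glucose. ITGB5 and ITGB8, whose chains also pair with alphaV, did not pass the rule. ITGB5 had 176 CPM without and 266 CPM with glucose (log2 ratio -0.59), and ITGB8, another activator of latent TGF-beta, had 348 and 473 CPM (-0.44). ITGAV itself, their shared alpha chain, had 505 CPM without glucose and 613 CPM with glucose (-0.28). The ratio of ITGB6 was thus 11.5-fold below that of ITGAV (counting interval 8.85 to 14.9) and that of ITGB3 was 2.83-fold below it (2.73 to 2.93). These differences between genes within the same pair of libraries do not depend on library scaling.

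ITGB1, the common partner of most alpha chains, had 39488 counts without glucose and 33989 with glucose, or 1284 and 1220 CPM, a 1.05-fold ratio (interval 1.04 to 1.07). Among the member integrin genes it was the most abundant per kilobase in both libraries, at 316 CPM per kilobase without and 300 CPM per kilobase with glucose. Among the 5 beta chains that can pair with alphaV, taken per kilobase, ITGB1 made up 70.3% without glucose and 51.4% with glucose. The share of ITGB3 was 9.0% without and 23.8% with glucose, and that of ITGB6 was 0.186% without and 1.99% with glucose. ITGB5 took 11.7% and 13.6%, and ITGB8 took 8.85% and 9.25%.

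ITGB2, the beta chain of leukocyte integrins, was higher but scarce in both libraries. It had 64 counts without glucose and 15 with glucose, or 2.08 and 0.539 CPM, a 3.87-fold ratio (interval 2.18 to 7.30), and 1 of its 17 exons without glucose and 0 with glucose had more than 10 reads. After adding 1 CPM in each library its log2 ratio stood at 1.0 in place of 1.95. ITGAX, 1 of its leukocyte alpha partners, had 11 counts without and 1 with glucose and was not measured. No other alpha partner of ITGB2 was among the members. The leukocyte marker list summed to 346 CPM without glucose and 264 CPM with glucose, of which LCP1 made up 320 and 253 CPM, and CD3E had 2 counts without and 1 with glucose. Of that list, CD68 was higher, at 25.6 CPM without and 10.7 CPM with glucose, and its part in the ITGB2 result was not tested. ITGB7 had 39 counts without and 34 with glucose, and ITGB4, the hemidesmosome beta chain, had 24 and 37.

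Among the member alpha chains 1 was higher and 1 lower of 10 measured, where 3.75% and 6.2% of all measured genes were. ITGA4, whose product pairs with the chains of ITGB1 or ITGB7 and binds fibronectin and VCAM1, had 480 counts without glucose and 1692 with glucose. This was 15.6 CPM without and 60.8 CPM with glucose, a 3.89-fold lower level (interval 3.51 to 4.32). Of its 28 exons, 18 had more than 10 reads without glucose and 27 with glucose. The gene overlaps CERKL on the opposite strand, which had 20 and 22 counts. Relative to ITGB1, the ratio of ITGA4 was 4.10-fold lower (counting interval 3.70 to 4.54).

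ITGA11, a collagen-binding alpha chain of mesenchymal cells, had 71 counts without glucose and 13 with glucose, or 2.31 and 0.467 CPM. The ratio was 4.95-fold higher (interval 2.72 to 9.74), the highest log2 ratio among the measured members at 2.31. It rests on few reads, since 1 of 30 exons had more than 10 reads without glucose and 0 with glucose, and with 1 CPM added the log2 ratio was 1.17. All 6 measured fibroblast markers had log2 ratios below 0, the lowest -0.82 and the highest -0.28. Of them 0 passed the rule, where 9.95% of all measured genes did. The fibroblast list summed to 8.16 CPM without and 11.5 CPM with glucose. The other collagen receptors did not pass the rule. ITGA1 had 12 CPM without and 15 CPM with glucose, ITGA2 had 12.4 and 16 CPM, and ITGA10 had 15 and 29 counts. ITGA1 contains the gene PELO on the same strand, which had 1169 and 984 counts.

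Of the laminin-binding alpha chains, ITGA3 was also the most abundant of all member alpha genes. It had 35733 counts without glucose and 27422 with glucose, or 1162 and 985 CPM (1.18-fold, interval 1.16 to 1.2). Per kilobase it took 62.5% of the transcripts of the 14 member alpha genes without glucose and 51.7% with glucose. ITGA6 had 91.1 CPM without and 75.6 CPM with glucose (log2 ratio 0.27), and ITGA7 had 16 and 17 counts. ITGA5, the main fibronectin receptor chain, had 193 CPM without and 293 CPM with glucose (-0.60). Summed over each class, the RGD-binding alpha genes came to 698 CPM without glucose and 906 CPM with glucose, while the laminin-binding ones came to 1254 and 1061 CPM. Neither sum differed by 2-fold.

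**Figure D2:**
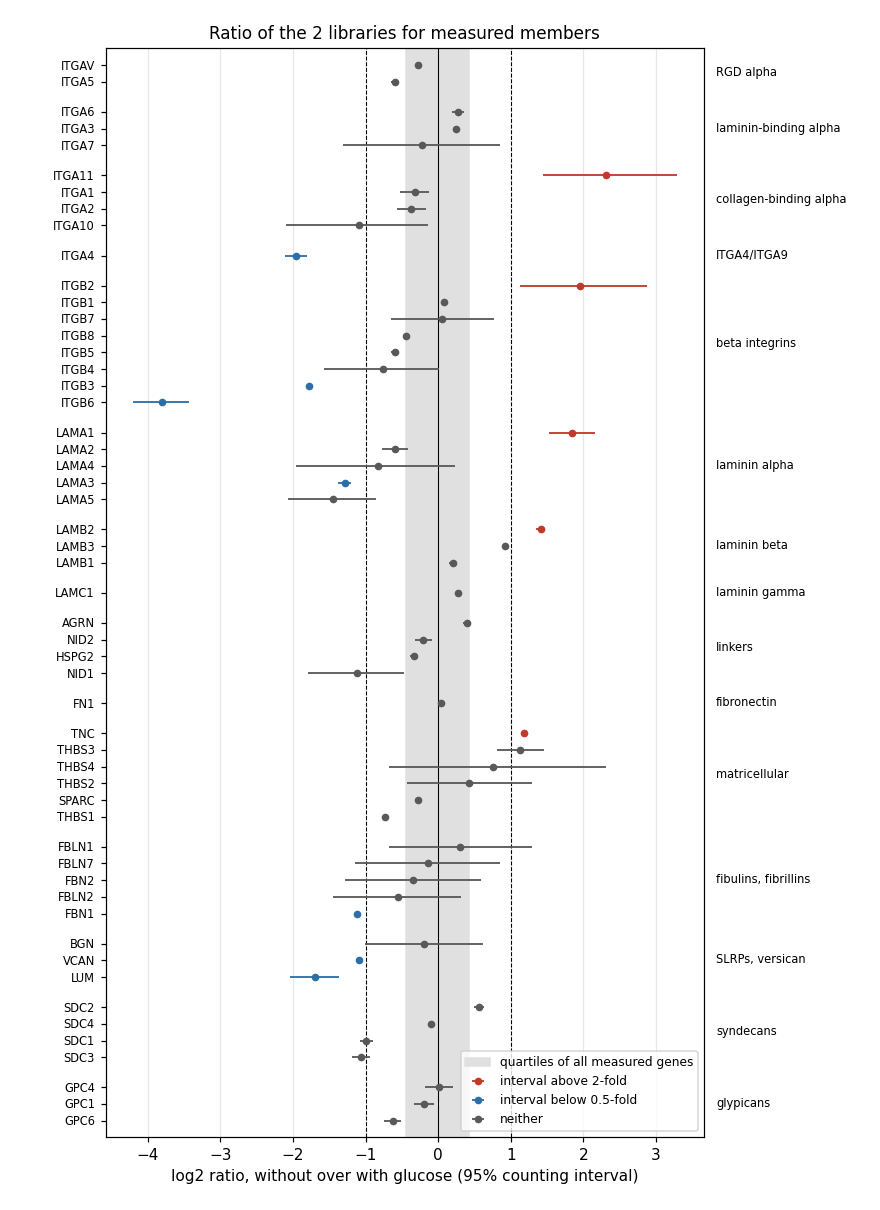
Log2 ratio, without over with glucose, of measured members with the 95% counting interval, grouped by role. Dashed lines mark 2-fold in either direction, the grey band spans the quartiles of all measured genes (-0.45 to 0.42), and the 5 higher and 7 lower members lie wholly outside the dashed lines.

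Of the laminin genes, LAMA1 and LAMB2 were higher and LAMA3 was lower. The 10 measured laminins had a median log2 ratio of 0.24, and their summed level was 2414 CPM without glucose and 1717 CPM with glucose (1.41-fold, interval 1.39 to 1.42). All 5 measured beta and gamma genes had ratios above 1, while 4 of 5 alpha genes had ratios below 1, and of these LAMB2 and LAMA3 alone passed the rule.

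LAMB2 encodes the beta chain of the glomerular basement membrane. It had 7338 counts without glucose and 2503 with glucose, or 239 and 89.9 CPM, a 2.66-fold higher level (interval 2.54 to 2.78). LAMB1, its more widely used counterpart, had 263 CPM without and 229 CPM with glucose (log2 ratio 0.20). The ratio of LAMB2 exceeded that of LAMB1 by 2.31-fold (counting interval 2.19 to 2.44), so that LAMB2 made up 21.4% of laminin beta transcripts per kilobase without glucose and 14.0% with glucose. LAMC1, the gamma chain of most laminins and the most abundant laminin gene, had 960 CPM without and 794 CPM with glucose (0.27).

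LAMA1, an alpha chain of embryonic basement membranes and of the renal tubule, had 406 counts without glucose and 103 with glucose, or 13.2 and 3.70 CPM. This was 3.57-fold higher (interval 2.87 to 4.48), and 12 of its 63 exons had more than 10 reads without glucose, against 0 with glucose. Among laminin alpha transcripts per kilobase it took 17.6% without and 2.63% with glucose. LAMA2, the alpha chain of muscle basement membranes, had 15 CPM without and 22.7 CPM with glucose (log2 ratio -0.60). LAMA5, the main alpha chain of the mature kidney, was scarce, with 34 counts without and 84 with glucose (-1.45, interval -2.07 to -0.86), and LAMA4 had 13 and 21 counts.

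LAMA3 and LAMB3 encode an alpha and a beta chain of the epithelial laminin that anchors cells at hemidesmosomes, and their ratios lay on opposite sides of 1. LAMA3 had 1574 counts without glucose and 3478 with glucose, or 51.2 and 125 CPM, a 2.44-fold lower level (interval 2.30 to 2.59). LAMB3 had 14588 counts without glucose and 7020 with glucose, or 474 and 252 CPM, a 1.88-fold ratio (interval 1.83 to 1.94) that stayed below the rule. The ratio of LAMA3 was 4.59-fold below that of LAMB3 (counting interval 4.30 to 4.91). Per kilobase, LAMA3 was scarcer than LAMB3 in both libraries, at 4.82 CPM per kilobase without and 11.8 with glucose. LAMB3 stood at 106 CPM per kilobase without and 56.4 with glucose. Centred on genes of similar length, LAMA3 no longer passed the rule (log2 ratio -1.07).

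Promoter sequence from RefSeq was at hand for 51 of the 66 members, as 64 starts, each from 250 bases before to 50 after the start in GRCh38.p14. Both strands were searched for TGANTCA, the letters bound by AP-1, for TATAAA, the TATA box, and for TGACGTG, the core bound by ATF6. The letters TGANTCA were found in 3 of the 64 member promoters (4.69%), where 7.71% of all 35116 promoters held it. TGACGTG was found in 1 of 64 (1.56%, beside 1.97% of all), and TATAAA in 6 of 64 (9.38%, beside 11.5% of all). The starts with TGANTCA were the only LAMA3 start at hand, 1 of 3 starts of LAMB3 and the ITGA5 start. The gene models of LAMA3 and LAMB3 hold several transcripts each. Their counts cover the whole model, so neither ratio can be assigned to a single start. The bases before the start are shown for LAMA3 and for that LAMB3 start, since these 2 chains of 1 trimer share the letters but not the direction of their ratios. They are also shown for ITGA11, the only matched member with TGACGTG, and for ITGB6, the member with the lowest ratio, which held none of the 3 motifs. The windows were chr18:23872770-23873019 on the plus strand for LAMA3 and, on the minus strand, chr1:209651375-209651624 for LAMB3, chr15:68432164-68432413 for ITGA11 and chr2:160200273-160200522 for ITGB6. Each runs 5′ to 3′ on the strand of its gene and ends at the base before the start, and capitals mark TGANTCA or TGACGTG.
LAMA3: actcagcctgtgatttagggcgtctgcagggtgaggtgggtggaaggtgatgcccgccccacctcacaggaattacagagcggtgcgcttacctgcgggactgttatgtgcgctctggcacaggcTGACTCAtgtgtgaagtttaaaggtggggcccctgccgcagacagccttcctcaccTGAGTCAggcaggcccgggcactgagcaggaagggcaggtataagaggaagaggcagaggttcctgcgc
LAMB3: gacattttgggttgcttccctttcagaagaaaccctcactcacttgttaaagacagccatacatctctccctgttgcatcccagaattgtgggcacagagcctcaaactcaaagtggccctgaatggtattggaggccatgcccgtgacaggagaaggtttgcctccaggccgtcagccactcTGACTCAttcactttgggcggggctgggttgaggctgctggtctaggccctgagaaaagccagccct
ITGA11: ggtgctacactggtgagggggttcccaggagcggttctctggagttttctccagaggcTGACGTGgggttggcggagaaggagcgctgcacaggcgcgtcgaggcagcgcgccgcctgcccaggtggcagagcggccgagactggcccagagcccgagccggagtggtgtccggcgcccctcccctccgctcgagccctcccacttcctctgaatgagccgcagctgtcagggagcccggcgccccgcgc
ITGB6: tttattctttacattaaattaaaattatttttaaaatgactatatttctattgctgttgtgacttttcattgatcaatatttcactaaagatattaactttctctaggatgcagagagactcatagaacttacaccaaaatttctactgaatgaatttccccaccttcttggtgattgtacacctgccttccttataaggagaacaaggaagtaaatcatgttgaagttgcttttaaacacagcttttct
A match is a description of the letters and not of binding. TGANTCA begins 125 and 69 bases before the start in LAMA3 and 67 bases before it in LAMB3. GC made up 60.4% of the LAMA3 window, 54% of the LAMB3 window, 71.2% of the ITGA11 window and 30% of the ITGB6 window.

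**Figure D3:**
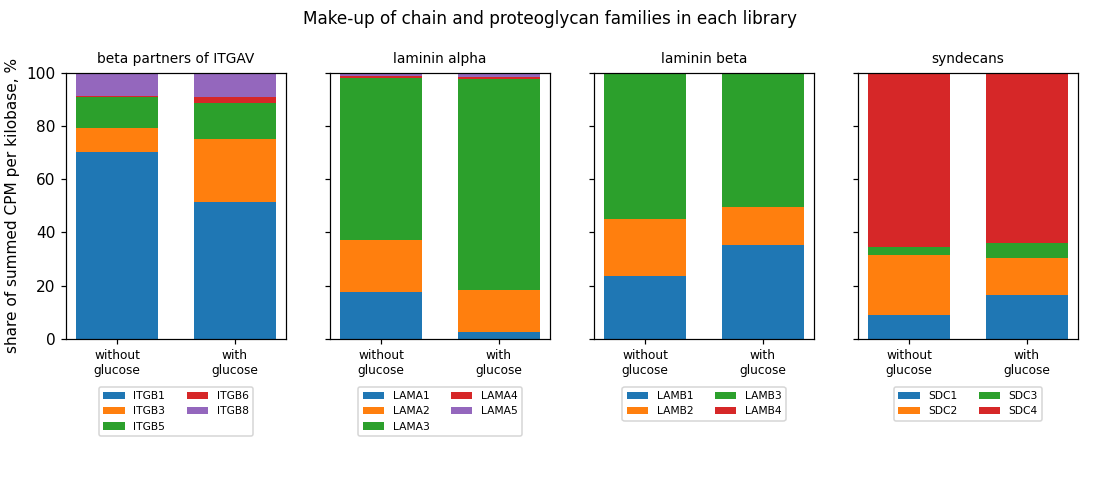
Share of the summed CPM per kilobase taken by each gene within 4 families, for the library without glucose on the left and the library with glucose on the right of each panel, 1 library each. ITGB3 and LAMA3 take smaller shares without glucose (9.0% against 23.8%, and 60.8% against 79.1%), and LAMA1 and SDC2 take larger ones.

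Of the 4 basement membrane linkers, 0 were called by the rule, where 9.95% of all measured genes were called in either direction. HSPG2, perlecan, had 155 CPM without and 195 CPM with glucose (log2 ratio -0.33). AGRN, agrin, had 278 CPM without and 212 CPM with glucose (0.39). NID2, a nidogen, had 36.2 CPM without and 41.8 CPM with glucose (-0.21). Its paralog NID1 had only 31 counts without and 61 with glucose (-1.12, interval -1.79 to -0.47). Together the linkers came to 470 CPM without glucose and 451 CPM with glucose.

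Of the matricellular glycoproteins, which modulate adhesion without building fibres, TNC was higher. TNC, tenascin-C, had 19122 counts without glucose and 7655 with glucose, or 622 and 275 CPM, a 2.26-fold higher level (interval 2.20 to 2.32). All 28 exons had more than 10 reads in both libraries. THBS1, which activates latent TGF-beta and binds CD47 and CD36, had 39854 counts without glucose and 59883 with glucose, or 1296 and 2150 CPM. Its ratio was 1.66-fold lower (interval 1.64 to 1.68), which did not pass the rule. SPARC, which binds collagen, had 794 CPM without and 959 CPM with glucose (log2 ratio -0.27). The minor thrombospondin THBS3 had 268 counts without and 111 with glucose, 2.19-fold more, with an interval of 1.75 to 2.75 that spanned the bound. THBS2 had 31 and 21 counts.

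The fibre and hyaluronan-binding proteins FBN1, VCAN and LUM were lower. FBN1, fibrillin-1, the backbone of elastic microfibrils, had 8392 counts without glucose and 16501 with glucose, or 273 and 592 CPM. This was 2.17-fold lower (interval 2.11 to 2.23). VCAN, the chondroitin sulfate proteoglycan versican, had 16627 counts without glucose and 32083 with glucose, or 541 and 1152 CPM, a 2.13-fold lower level (interval 2.09 to 2.17). Both lie close to the bound, and centred on genes of similar length neither was called, with log2 ratios of -0.91 for FBN1 and -0.88 for VCAN. LUM, lumican, a small leucine-rich proteoglycan that spaces collagen fibrils, had 100 counts without glucose and 295 with glucose, or 3.25 and 10.6 CPM. It was 3.26-fold lower (interval 2.59 to 4.13). The fibroblast markers, which LUM often accompanies in tissue, summed to 8.16 CPM without glucose and 11.5 CPM with glucose, and their part in the LUM result was not tested. DCN, decorin, which lies 33493 bases from LUM on chromosome 12, had 5 counts without and 3 with glucose, and BGN, biglycan, had 27 and 28. The member fibulins were scarce, with FBLN1 at 23 and 17 counts, FBLN2 at 21 and 28, and FBLN7 at 19 in both libraries. FBN2 had 20 and 23 counts. EFEMP1, a fibulin that is not a member, had 40.5 CPM without and 9.23 CPM with glucose.

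Of the 4 syndecans and 3 measured glypicans, 0 were called by the rule, where 9.95% of all measured genes were called in either direction. SDC4, the syndecan of focal adhesions, was the most abundant, with 316 CPM without and 338 CPM with glucose (log2 ratio -0.10), and took 65.6% and 64.2% of syndecan transcripts per kilobase. SDC1, the epithelial syndecan, had 1719 counts without glucose and 3093 with glucose, 1.99-fold less, with an interval of 1.87 to 2.11 that spanned the bound. SDC3 had 855 counts without and 1616 with glucose (2.09-fold less, interval 1.92 to 2.27). SDC2, by contrast, had 144 CPM without and 97.8 CPM with glucose (1.47-fold, interval 1.40 to 1.55). Its share of syndecan transcripts per kilobase was 22.4% without and 13.9% with glucose, beside 8.99% and 16.3% for SDC1. Among glypicans, the GPI-anchored heparan sulfate carriers, GPC1 had 25.8 CPM without and 29.6 CPM with glucose, GPC4 had 15.8 and 15.7 CPM, and GPC6 had 37.1 and 57.3 CPM (-0.63).

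Gene length was set beside these ratios because the longest genes had lower ratios in these libraries. The measured members were long, with a median gene model of 5128 bases against 2963 bases for all measured genes, and 17 of 54 fell in the longest of 10 length classes. In that class the median log2 ratio of all genes was -0.21, and that of the 17 members was -0.37. Of these 17, 2 were higher and 3 lower, where 3.30% of the class were higher and 7.09% lower. Centred on the median of each length class, the members' median log2 ratio was -0.14. Of the 54 members 6 were then higher and 4 lower, beside 3.63% and 6.0% of all measured genes under the same centring. The 10 of 54 members called in either direction stood beside 9.63% of all measured genes.

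**Figure D4:**
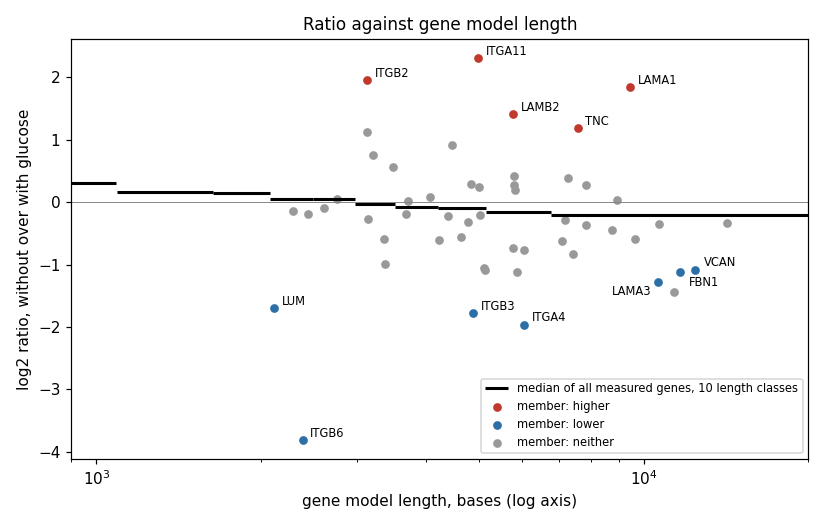
Log2 ratio, without over with glucose, of measured members against the length of the gene model on a log axis, with black bars for the median of all measured genes in each of 10 length classes (0.31 in the shortest, -0.21 in the longest). Among the lower members, ITGB6 and LUM have short gene models, and LAMA3, FBN1 and VCAN lie in the longest class.

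Genes that work with these members were taken from 4 lists. Of all measured genes, 3.75% were higher and 6.2% lower, and the median log2 ratio was 0.01. Of 34 measured focal adhesion linkers and kinases, which couple integrin tails to actin, 0 were higher and 3 lower, and the median log2 ratio was -0.02. The 3 were VCL, vinculin, at 287 CPM without and 635 CPM with glucose, and the tensins TNS3 (65.6 and 201 CPM) and TNS1 (4.13 and 13.6 CPM). Centred on genes of similar length, VCL was no longer called (log2 ratio -0.98). The talin gene TLN1 (857 and 1018 CPM), FERMT2, a kindlin (103 and 104 CPM), PXN, paxillin (121 and 116 CPM), and PTK2, the focal adhesion kinase (328 and 408 CPM), were not called. Of 25 other measured matrix glycoproteins, 3 were higher and 1 lower, and the median log2 ratio was -0.07. EFEMP1, the fibulin known as fibulin-3, was 4.39-fold higher at 40.5 CPM without and 9.23 CPM with glucose. The integrin-binding proteins of CTGF (34.1 and 8.72 CPM) and CYR61 (176 and 56.7 CPM) were also higher, and LTBP3, a latent TGF-beta binding protein, was lower (13.9 and 38.0 CPM).

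The same shares of all measured genes, 3.75% higher and 6.2% lower, and their median log2 ratio of 0.01, stand beside the lists below. Of 20 measured genes of heparan sulfate synthesis and editing, which build and trim the chains of syndecans, glypicans and perlecan, 0 were higher and 1 lower, and the median log2 ratio was -0.33. The lower gene was XYLT1, a xylosyltransferase that starts the chains, at 4.46 CPM without and 12.7 CPM with glucose. Its paralog XYLT2 had 33.8 CPM without and 52.6 CPM with glucose (log2 ratio -0.64) and was not called. The chain polymerase gene EXT1 had 501 CPM without and 327 CPM with glucose (log2 ratio 0.61), and EXT2 had 165 and 200 CPM (-0.27). Of 11 measured tetraspanins and integrin-associated membrane proteins, 1 was higher and 1 lower, and the median log2 ratio was -0.27. SLC3A2, which binds integrin beta tails as well as carrying amino acid transporters, was higher, at 1662 CPM without and 228 CPM with glucose. The tetraspanin gene CD82 was lower, at 23.7 CPM without and 87.9 CPM with glucose (3.71-fold).

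Positions follow the tables, in hg19. ITGB6 spans 160958233 to 161056590 of chromosome 2 (minus strand) and ITGA4 spans 182321619 to 182402468 of the same chromosome (plus strand). ITGB3 spans 45331208 to 45390077 of chromosome 17 (plus strand). LAMB2 spans 49158547 to 49170599 of chromosome 3, LAMA1 spans 6941886 to 7117813 of chromosome 18 and TNC spans 117782805 to 117880486 of chromosome 9, all 3 on the minus strand. The values count reads over whole gene models, and 6 of the 66 members overlap another gene model in the tables, with the use of strand not given.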

How the data were processed

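RNA from 2 cultures of 786-O cells, taken with Trizol according to the labels, was sequenced as 1 library per group. Each sample's group came from its title. The authors deposited 1 table per library with raw counts, the length and exon numbers of 24364 RefSeq gene models and RPKM values, per the file headers. The deposited RPKM values were not used for comparisons. Gene positions are in hg19, which the submitters' processing notes name, with aligner, counter and use of strand not given in the sources used here.

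Rows repeating the place, length and counts of another symbol (528) were dropped and counts summed by symbol, giving 22595 symbols, of which 14240 had at least 20 counts over both libraries. Library sizes were scaled by TMM on these genes (edgeR 4.0.16, R 4.3.3), with factors of 0.981 without and 1.02 with glucose, and a count of 0 was set to 3 counts. Intervals are exact 95% Clopper-Pearson intervals of the share of a gene's counts in each library (scipy 1.17.1). Those of differences between genes and of shares per kilobase use large-sample formulas. They leave out every other source of error, and PCR copies of 1 molecule count as separate reads. No p-value is given.

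Members are given in order of role. Of the measured members 1 and of the markers 1 are not reported by name or drawn here, but enter the counts and sums. Members past the rule are given in full, with counts, CPM, ratio and interval. The most abundant member of a role is given in full or with CPM only in part. From each of the 4 other lists, up to 4 genes past the rule in each direction are given. TLN1, FERMT2, PXN, PTK2, XYLT2, EXT1, EXT2 and the promoters printed were picked with their values known. The members and lists were chosen with earlier results of these data known. Scaling, count minimum, size rule, small RNA genes, repeated rows and gene length were varied. Protein motifs, planned at first, were not analysed here.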

Additional observations from a re-analysis of the deposited data

How the results depend on the processing

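No paired analysis was possible because there was only 1 culture per condition, and for the same reason no replicate could be left out. In all, 10 other settings were run, each changing 1 choice. The direction of the 12 called members held under each setting in which they were counted. The median log2 ratio of the members ranged from -0.31 with scaling by total counts to -0.14 when centred by length class. With at least 200 counts, 3 of 38 members were higher and 7 lower, because ITGA11 and ITGB2 have fewer counts. Of all such genes, 3.56% were higher and 6.33% lower. With intervals beyond 1.5-fold, 8 members were higher and 11 lower (14.8% and 20.4%), where 10.2% and 12.6% of all measured genes were. Under the same rule, 3 focal adhesion genes were higher in place of 0, 5 and 3 other matrix glycoproteins were higher and lower in place of 3 and 1, 1 and 4 heparan sulfate genes in place of 0 and 1, and 2 tetraspanins and associated proteins were higher in place of 1. Centred by length class, 4 of 54 members were lower in place of 7, without LAMA3, FBN1 and VCAN, and 6 of 54 were higher. Of all measured genes, 6.0% were lower and 3.63% higher under that centring. There 2 focal adhesion genes were lower in place of 3, without VCL. With scaling by total counts all log2 ratios fell by 0.06, which turned those of FN1, GPC4 and ITGB7 to -0.02, -0.04 and -0.001. Depth limits the scarce members: ITGA11 and ITGB2 rest on 71 and 64 counts without glucose.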
